A study of Mus musculus with 8 samples.

Results

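The 7 genes described here, Spi1, Cebpa, Cebpb, Cebpd, Irf8, Runx1 and Maf, encode transcription factors of the myeloid lineage. Their accessible regions were taken from 8 ATAC-seq peak lists of mouse macrophages grown from bone marrow. ATAC-seq marks open DNA by letting the Tn5 transposase insert sequencing adapters into it. A region belonged to a gene when a peak in it had its summit within the gene's mm10 span or within 50 kb of either end. This gave 126 of the 76751 regions found in the whole study. A region near a gene is not shown to act on it: for 27 of the 126 another protein-coding gene was nearer, and 8 of these lay inside that gene.

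The macrophages were either wild type (WT) or a Lamin-A knockout (KO). Lamin-A is a product of Lmna and lines the inner side of the nuclear envelope. Each genotype was left untreated or received lipopolysaccharide (LPS), the bacterial cell wall component sensed by Toll-like receptor 4, for 6 h. All 4 groups held 2 libraries, and all cells shared 7 days of culture in 60 mm dishes, freezing in medium with 5% DMSO, thawing, Nextera tagmentation and 10 cycles of PCR. The question was the effect of LPS on open chromatin and whether Lamin-A matters for it. The labels do not give the LPS dose, the part of Lmna that was targeted, or whether the replicates came from separate animals, so p-values measure only the spread between these libraries. In the LPS libraries the source name includes untreated, but title and treatment field read LPS, and these were followed.

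PU.1, the product of Spi1, and the C/EBP proteins bind enhancers of macrophage genes and keep them open, and the resulting map of enhancers is later used by signal-dependent factors such as NF-kB and AP-1. Cebpa acts mainly while granulocyte and monocyte progenitors form, whereas Cebpb and Cebpd are inflammatory members of the family and are known to be induced by LPS. Irf8 partners with PU.1 and drives monocyte and dendritic cell fate, Runx1 is a core factor of blood stem cells that acts upstream of Spi1, and Maf encodes c-Maf, a factor of resident macrophages and an activator of Il10.

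The promoters were examined first, since 4 of the 7 genes (Cebpa, Cebpb, Irf8 and Runx1) have entries in the RefSeq promoter table for GRCm38.p6. Each entry covers 250 bases before to 50 bases after a transcription start. Of the 6 entries, 5 lay under regions called in all 8 libraries, against 31.2% of all 32851 promoters in the table. The exception was the second Irf8 start (chr8:120738389-120738688), over which no library had a region. The 5 open promoters are printed here because every library called a region over them, and they differ in base composition and in the short motifs they hold. Capitals mark TATAAA in Cebpa, Cebpb and Irf8, the cAMP response element core TGACG (on the other strand CGTCA) in Cebpb, and the RUNX motif TGTGGT (on the other strand ACCACA) in Runx1.
Cebpa, chr7:35119043-35119342, plus strand: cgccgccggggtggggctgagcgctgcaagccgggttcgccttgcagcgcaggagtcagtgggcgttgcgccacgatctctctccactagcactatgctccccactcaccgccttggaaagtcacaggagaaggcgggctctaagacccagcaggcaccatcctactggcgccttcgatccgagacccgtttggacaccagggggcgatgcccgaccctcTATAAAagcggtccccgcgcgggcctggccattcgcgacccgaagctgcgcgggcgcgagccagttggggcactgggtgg
Cebpb, chr2:167688665-167688964, plus strand: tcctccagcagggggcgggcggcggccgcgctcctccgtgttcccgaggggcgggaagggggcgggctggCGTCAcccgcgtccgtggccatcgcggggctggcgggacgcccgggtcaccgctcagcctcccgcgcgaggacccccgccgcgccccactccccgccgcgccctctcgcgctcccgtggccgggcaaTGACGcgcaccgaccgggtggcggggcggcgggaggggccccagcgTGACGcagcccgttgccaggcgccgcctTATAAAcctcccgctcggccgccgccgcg
Irf8, chr8:120736108-120736407, plus strand: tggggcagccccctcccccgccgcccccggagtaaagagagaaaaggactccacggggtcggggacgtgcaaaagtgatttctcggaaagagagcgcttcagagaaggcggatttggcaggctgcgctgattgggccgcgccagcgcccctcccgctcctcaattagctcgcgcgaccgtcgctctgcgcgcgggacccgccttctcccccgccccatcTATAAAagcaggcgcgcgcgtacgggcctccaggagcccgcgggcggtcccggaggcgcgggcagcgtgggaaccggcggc
Runx1 proximal, chr16:92697280-92697579, minus strand: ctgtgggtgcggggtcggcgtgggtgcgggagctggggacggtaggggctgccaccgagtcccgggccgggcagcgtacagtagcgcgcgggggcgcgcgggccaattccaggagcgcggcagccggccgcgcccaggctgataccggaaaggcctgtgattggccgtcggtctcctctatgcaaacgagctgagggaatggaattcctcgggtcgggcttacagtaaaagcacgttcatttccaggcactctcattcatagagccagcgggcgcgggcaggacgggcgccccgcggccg
Runx1 distal, chr16:92826025-92826324, minus strand: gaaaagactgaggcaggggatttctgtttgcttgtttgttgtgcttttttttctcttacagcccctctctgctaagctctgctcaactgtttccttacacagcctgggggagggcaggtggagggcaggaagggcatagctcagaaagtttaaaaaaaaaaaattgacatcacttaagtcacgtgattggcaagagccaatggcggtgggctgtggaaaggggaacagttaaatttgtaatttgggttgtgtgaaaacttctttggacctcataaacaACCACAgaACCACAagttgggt

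The Cebpb promoter had the highest GC content, 80.7%, followed by Irf8 with 70%, the proximal Runx1 promoter with 69% and Cebpa with 67.3%. The distal Runx1 promoter had 45%, below the median of 52.7% over all promoters. Bases are counted from 1 at the 5′ end of each window, and both strands were searched. TATAAA stood at bases 221 to 226 in Cebpa, 220 to 225 in Irf8 and 272 to 277 in Cebpb, and 13.6% of all promoters hold it. The Cebpb window held TGACG 3 times, a motif found in 20.8% of promoters. The distal Runx1 window held ACCACA 2 times, found in 16.8% of promoters, and the proximal one held the PU.1 core GAGGAA on the other strand, found in 28.3%. None of the 5 windows held the letters searched for C/EBP (TTGCNNAA), AP-1 (TGANTCA) or the tandem IRF motif, which 10.8%, 7.81% and 3.44% of promoters hold, and the matches show letters, not binding.

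The lists held 44504 to 59750 peaks, and every KO list (44504 to 49661) was shorter than every WT list (53942 to 59750), so a region lost in KO may be a weak peak below the end of a shorter list. Read totals were not used here. Column 7 of the lists, the fold enrichment of a peak over its local background, is the authors' value and is used below as the level of a region. Of the 131 regions around the 8 macrophage marker genes, 67 were called in all 8 libraries (51.1%), with at least 4 such regions at each gene. The 13 transcription factors of other blood lineages had 43 of 117 (36.8%). These 13 differed widely: Tcf4 had 9 such regions, Batf3 8, Klf1 and Tbx21 7 each and Tal1 6, more than the 4 at the macrophage marker Adgre1. Gata1, Gata2, Gata3, Pax5, Tcf7 and Eomes had 1 each, and Ebf1 of B cells and Bcl11b of T cells had none. All regions together had 30960 of 76751 (40.3%).

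The 7 myeloid genes were surrounded by regions that were open in most libraries. Of the 126 regions, 65 (51.6%) were called in all 8 libraries and 8 (6.35%) in 1 library, against 40.3% and 14.9% of all regions. Their median width was 414 bp, against 396 bp over all regions, and their median percentile of fold enrichment within a list was 33.8, against 36.8. The untreated WT libraries called 97 and 98 of the 126, the WT LPS libraries 102 and 95, the untreated KO libraries 88 and 91, and the KO LPS libraries 95 and 86. The LPS and untreated libraries overlapped in this number, and the genotypes overlapped only at 95.

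Region density set 5 of the genes apart from Cebpd and Maf. Cebpb had 16.7 regions per 100 kb of window, Irf8 16.6, Cebpa 14.6, Runx1 14.2 and Spi1 13.5, at percentiles 90.8 to 97.1 of protein-coding genes. Cebpd had 5.87 and Maf 3.86, near the median gene's 5.32. The long Runx1 gene held 46 regions with 22 called in all 8 libraries, Irf8 20 with 10, Spi1 18 with 11, Cebpb 17 with 9, Cebpa 15 with 8, Cebpd 6 with 2 and Maf 4 with 3. Regions are numbered below within each gene from the lower coordinate, and "below" and "above" a gene mean toward lower and higher coordinates. Below is upstream for Cebpa, Cebpb and Irf8, on the plus strand, and downstream for Runx1, on the minus strand.

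**Figure D1:**
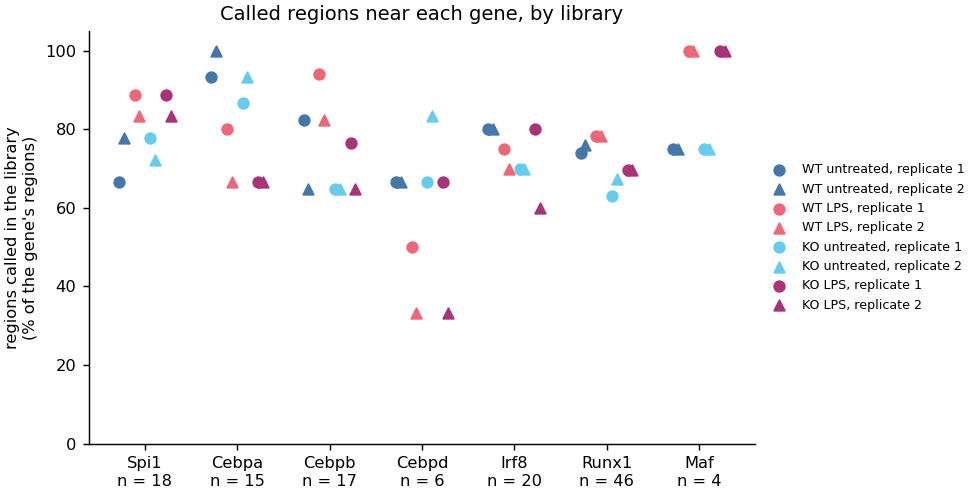
Share of each gene's regions that each library called (y axis, percent; n under each gene is its number of regions); colours are the 4 groups, circles replicate 1 and triangles replicate 2. Maf reached 100% in the 4 LPS libraries and 75% in the untreated ones. Of the 15 Cebpa regions, both KO LPS libraries and WT LPS replicate 2 called 10, and WT LPS replicate 1 called 12.

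With LPS, regions around these genes were gained and lost in like numbers in both genotypes. Gained means called in both LPS libraries and in neither untreated one, and lost the opposite; KO against WT is counted likewise. In WT, 12 of the 126 regions were gained (9.52%; 10.1% of all regions) and 10 were lost (7.94%; 6.02% of all regions). In KO, 9 were gained (7.14%; 8.03% of all regions) and 8 were lost (6.35%; 5.56% of all regions). These shares lay close to those over all regions. Without KO LPS replicate 2 the gained count in KO was 14, and without KO LPS replicate 1 the lost count was 14, since fewer libraries must then agree. Shares over all regions were not computed with a library left out. Calls carry no p-value, since 2 libraries against 2 cannot go below an exact two-sided p of 0.333. Cebpa and Cebpd had losses and no gain in either genotype, whereas Cebpb, Spi1 and Maf had gains and no loss. Between the genotypes, 6 regions were gained in both (3720 of all regions, 4.85%), 1 each at Spi1, Cebpb, Irf8 and Maf and 2 at Runx1, and 5 were lost in both (1375 of all regions, 1.79%), 2 each at Cebpa and Cebpd and 1 at Runx1.

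**Figure D2:**
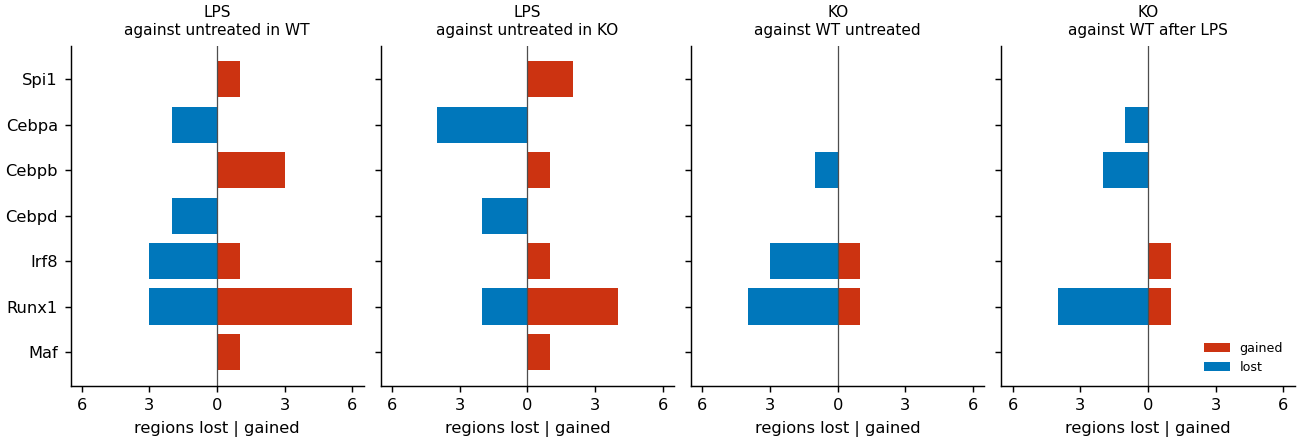
Number of regions lost (bars to the left) and gained (bars to the right) at each gene in the 4 comparisons. In WT with LPS, Runx1 had 6 gained and 3 lost, Cebpb 3 gained, and Cebpa and Cebpd 2 lost each; in KO with LPS, Cebpa had 4 lost.

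Regions called in all 8 libraries were compared by rank, because the fold enrichment is made within each library. The 30960 such regions of the genome were ranked by fold enrichment in every library, the ranks were turned into normal scores, and limma tested them with Benjamini-Hochberg adjustment over all 30960 at a threshold of 0.05. Of the 65 regions near the 7 genes, 3 ranked higher and 3 lower with LPS in WT (7.85% and 7.43% of all regions). Ranks of the −log10 p gave 6 higher and 2 lower in WT (11.2% and 9.9% of all regions). In KO, 6 ranked higher and 9 lower (9.76% and 9.18%). Averaged over both genotypes, 9 ranked higher and 10 lower (15% and 15.8%). With log2 of the fold enrichment in place of ranks, the counts were 4 and 19 (8.46% and 27.7% of all regions). By rank, the lower count in WT was 1 without WT untreated replicate 1 or 2 or WT LPS replicate 2 (2.37%, 2.76% and 3.24% of all regions). In KO it was 4 without untreated replicate 1 (5.1%), and 5 without untreated replicate 2 or LPS replicate 1 (5.26% and 6.55%). The log2 scale carries a shift of the median over all regions of −0.14 with LPS. The split in WT on the log2 scale was 3 higher and 5 lower (4.27% and 11.7% of all regions), and in KO 4 and 12 (5.35% and 16.1%). No difference in response between the genotypes was called: the test of the difference between the 2 LPS responses called 0 of the 65 (0% of all regions in either direction), with 3 of 65 at an unadjusted p under 0.05 by limma (4.62%, against 7.3% of all regions) and 0 of 65 also with log2 values or with ranks of the −log10 p.

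**Figure D3:**
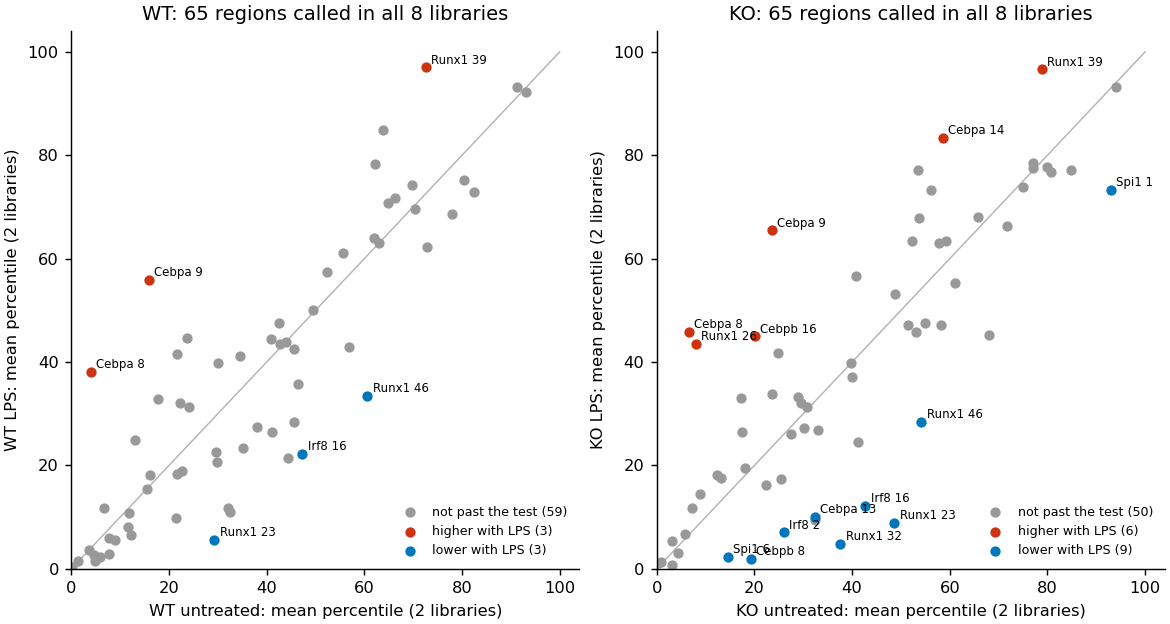
Mean percentile of fold enrichment among the 30960 shared regions, untreated (x axis) against LPS (y axis), for the 65 regions of the 7 genes in WT (left) and KO (right); each point is a mean of 2 libraries, and the line marks equal percentiles. Cebpa regions 8 and 9 and Runx1 region 39 lie above the line in both genotypes, and Runx1 regions 23 and 46 and Irf8 region 16 below it.

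Cebpa, the factor of granulocyte and monocyte progenitors, was divided: regions upstream of it were weaker or not called with LPS, and of the 4 regions nearest on the downstream side, 2 rose. Region 3 (chr7:35098696-35099246), 20.4 kb upstream and the strongest of the 15 by mean fold enrichment where called, had 14.7 and 18.3 in untreated WT, 13.1 and 13.9 in untreated KO, 8.11 in WT LPS replicate 1, and was not called in the other 3 LPS libraries. Region 4 (chr7:35106590-35107023), 12.5 kb upstream, had 10.4 and 7.35 in untreated WT and 5.66 and 8.11 in untreated KO. Region 2 (chr7:35086550-35086973), 32.6 kb upstream, had 8.31 and 7.02 in untreated WT and 7.12 and 6.76 in untreated KO. Regions 2 and 4 were called in no LPS library, and were thus lost in both genotypes. Region 3 was lost in KO, and in WT the single call with LPS kept it from counting as lost.

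Region 1 (chr7:35080737-35081461), 38.1 kb upstream, had 11 and 9.26 in untreated WT and 8.89 and 8.94 in untreated KO, against 4.44 in WT LPS replicate 1, no call in replicate 2, and 4.93 and 4.85 in KO with LPS. At all 4 upstream regions away from the promoter, every LPS library was below every untreated one or had no call. Regions 1 to 3 also lie in the window of Cebpg, a neighbouring gene of the same family. The promoter region 5 (chr7:35118373-35119509) kept values of 12.8 and 11.5 in untreated WT, 11.5 and 10.9 with LPS, 12.4 and 14.2 in untreated KO, and 11.9 and 11.6 with LPS. Its score difference was 0.05 ± 0.19 (SE) in WT and −0.04 ± 0.19 in KO (limma adjusted p = 0.899 and 0.91).

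On the downstream side, region 6, 3.0 kb from the gene, had 4.68 and 4.55 in untreated WT, 3.22 and 3.8 with LPS, 4.68 in untreated KO replicate 2 with no call in replicate 1, and 3.7 and 3.33 in KO with LPS. These LPS values were all below the untreated ones, and the region was outside the rank test. Region 7, 5.4 kb away, had values from 5.38 to 7.18 and did not pass (limma adjusted p = 0.888 in WT and 0.446 in KO). Region 8 (chr7:35127732-35128180), 6.0 kb from the gene, had 4.9 and 4.45 in untreated WT and 9.41 and 7.32 with LPS, and 4.69 and 5.19 in untreated KO and 7.78 and 8.69 with LPS. Region 9 (chr7:35133016-35133393), 11.3 kb away, had 6.99 and 6.17 rising to 10.1 and 10.3 in WT, and 6.72 and 7 rising to 9.83 and 11.3 in KO. In both regions every LPS value exceeded every untreated one. Region 8 went from the 4.03rd to the 38.1st percentile in WT, a score difference of 1.45 ± 0.22 (SE, limma adjusted p = 0.00188), and from 6.51 to 45.8 in KO (adjusted p = 0.00172). Region 9 went from 15.9 to 55.9 in WT (limma adjusted p = 0.0049) and from 23.6 to 65.5 in KO (adjusted p = 0.00438).

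Farther downstream the directions were also mixed. Region 12 (chr7:35150750-35151301), 29.1 kb from the gene, had 8.44 and 7.28 in untreated WT, 4.77 and 4.07 in WT with LPS, 6.05 and 6.28 in untreated KO, and no call in KO with LPS. It was thus the only Cebpa region lost between KO and WT after LPS. Region 13 (chr7:35156384-35157013), 34.8 kb away, had 9.79 and 9.25 in untreated WT, 7.92 and 6.44 with LPS, 7.89 and 7.52 in untreated KO, and 4.39 and 5.25 with LPS. It fell in KO from percentile 32.4 to 10.1 (limma adjusted p = 0.0249) and in WT its percentiles were 41 and 26.4 (adjusted p = 0.297). The call in KO ended without any 1 of 3 libraries (untreated replicates 1 and 2 and LPS replicate 1), with adjusted p of 0.0524 to 0.173. Enhancers downstream of Cebpa are known from mouse myeloid cells, and a match with these regions was not tested. Region 14 (chr7:35163601-35164082), 41.9 kb away, rose in KO from percentile 58.6 to 83.4 (limma adjusted p = 0.0142) and over both genotypes from 60.4 to 80.8 (adjusted p = 0.00374), but not on the log2 scale (adjusted p = 0.0874 and 0.0611). Its call in KO also ended without untreated KO replicate 1 or KO LPS replicate 1, with score differences of 0.72 and 0.69. Regions 13 and 14 were nearer to Slc7a10, an amino acid transporter gene, than to Cebpa.

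**Figure D4:**
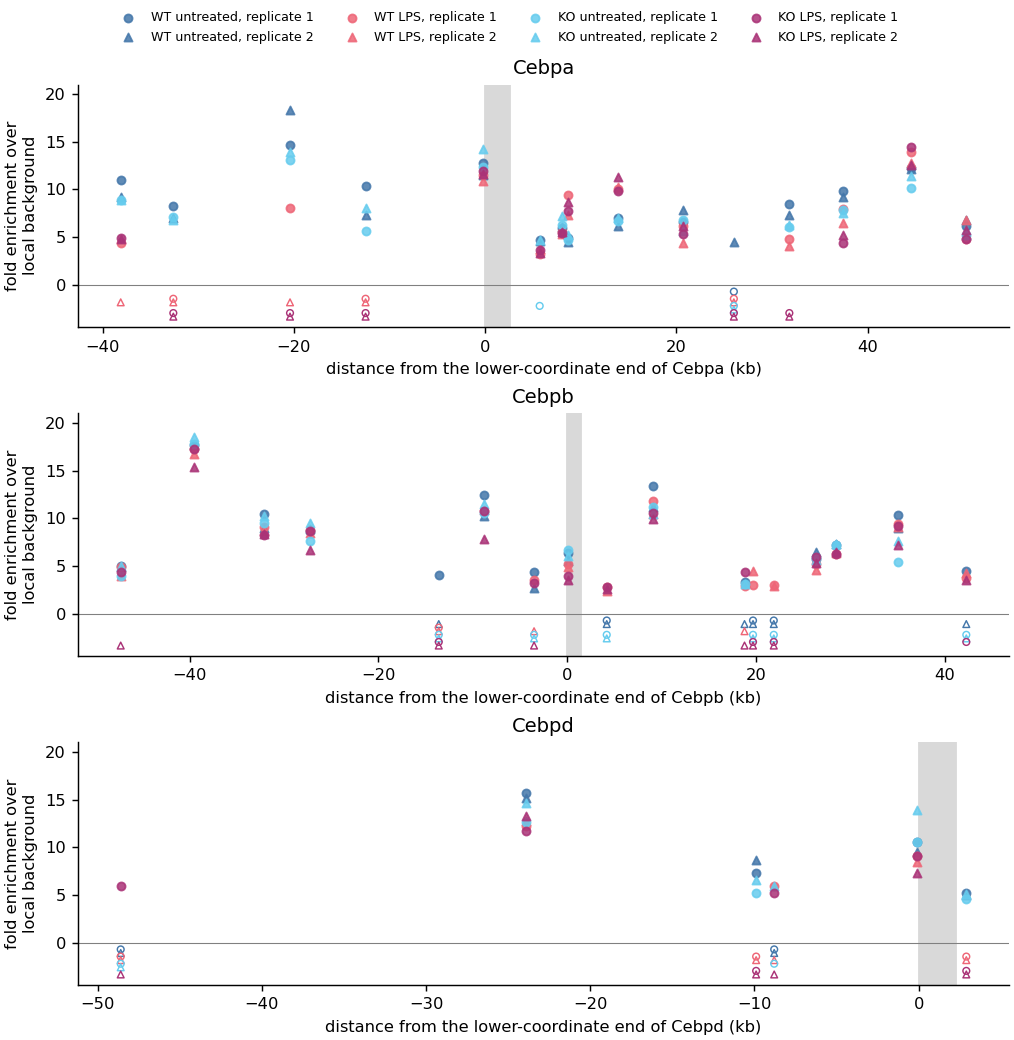
Fold enrichment over local background (y axis) of every region in every library against the distance of its summit from the lower-coordinate end of Cebpa, Cebpb and Cebpd (x axis, kb); the grey band is the gene, colours are groups, and open symbols under the zero line mark libraries with no call. At Cebpa the points 12.5 to 38.1 kb to the left are open symbols or the lowest values in LPS libraries.

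Cebpb, an inflammatory C/EBP gene, had 3 gained regions with LPS in WT and 1 in KO, all of them weak, and its strongest region did not pass the rank test. The strongest, region 2 (chr2:167649144-167649816), lay 39.5 kb upstream inside Tmem189 and had 17.7 and 17.7 in untreated WT, 17.3 and 16.8 in WT with LPS, 17.8 and 18.5 in untreated KO, and 17.3 and 15.4 in KO with LPS. All 8 libraries were close, with score differences with LPS of 0.14 ± 0.19 (SE) in WT and −0.07 ± 0.19 in KO (limma adjusted p = 0.677 and 0.834). Region 9 (chr2:167692852-167693250), 2.6 kb downstream of the gene, was called in the 4 LPS libraries alone, at 2.82 and 2.41 in WT and 2.78 and 2.62 in KO. These are among the weakest peaks of the lists, at a mean list percentile of 0.352. Regions 12 and 13, 18.2 and 20.3 kb downstream, were called only in the WT LPS libraries, at 3.02 and 4.47 and at 3.02 and 2.94. None of the 3 gains in WT remained with equal numbers of peaks per list, nor with peaks of −log10 p of at least 20. In KO, the gain of region 9 was kept with equal numbers of peaks, and its −log10 p with LPS was 20.8 and 15.8.

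The Cebpb promoter region 8 (chr2:167688144-167689311), with the 3 TGACG motifs shown above, had 6.38 and 5.55 in untreated WT, 5.26 and 4.9 with LPS, 6.71 and 6.08 in untreated KO, and 4 and 3.51 with LPS. The values were lower with LPS in each genotype without overlap. Only KO passed alone: its mean percentile fell from 19.2 to 1.91, a score difference of −1.21 ± 0.21 (SE, limma adjusted p = 0.00262), against percentiles of 11.5 and 8 in WT (adjusted p = 0.593). The difference between the 2 responses, −1.01 ± 0.30 (SE), had the smallest unadjusted p among the 65 regions and a limma adjusted p of 0.52. Over both genotypes the region fell from 15.4 to 4.95 (limma adjusted p = 0.00379), and with ranks of the −log10 p this call ended (adjusted p = 0.174). Region 16 (chr2:167723734-167724225), 33.5 kb downstream, had 5.38 and 7.65 in untreated KO and 9.16 and 7.22 in KO with LPS. It was called higher in KO (limma adjusted p = 0.0475), and the call ended without untreated KO replicate 1 (adjusted p = 0.308) or either KO LPS library (0.0792 and 0.201), and on the log2 scale (0.198).

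Cebpd, the second inflammatory C/EBP gene, had 6 regions, of which 2 were lost with LPS in both genotypes and none gained. Region 3 (chr16:15877157-15877482), 9.9 kb below the gene, had 7.35 and 8.72 in untreated WT, 5.2 and 6.58 in untreated KO, and no call in any LPS library. Region 6 (chr16:15889953-15890356), 0.6 kb above the gene and inside Spidr, a gene of DNA repair, had 5.23 and 5 in untreated WT, 4.58 and 5.11 in untreated KO, and no call with LPS. The 2 regions divided all untreated from all LPS libraries. The region at the lower end of the gene, region 5 (chr16:15886720-15887562), had 10.6 and 9.53 in untreated WT, 9.09 and 8.43 with LPS, 10.6 and 13.9 in untreated KO, and 9.12 and 7.33 with LPS. Its percentile means were 45.6 and 42.5 in WT and 68.1 and 45.3 in KO (limma adjusted p = 0.85 and 0.0694). The strongest region, 23.9 kb below the gene and 0.1 kb from Mzt2, ranged from 11.7 to 15.7 and did not pass in either genotype (limma adjusted p = 0.367 in WT and 0.921 in KO).

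Spi1, which encodes PU.1, had 11 of its 18 regions in all 8 libraries, and 9 of the 18 lay inside the gene at values of at most 8.28. Region 7 (chr2:91082808-91083370), 0.7 kb inside the lower end, had 5.8 and 4.98 in untreated WT, 4.8 and 4.69 with LPS, 5.38 and 6.02 in untreated KO, and 5.87 and 5.5 with LPS. The strongest regions lay below the gene, and 5 of those 6 were nearer to another gene. Region 1 (chr2:91042587-91043105), 39.5 kb below and inside Rapsn, which encodes a protein of the neuromuscular synapse, had 17.5 and 19.4 in untreated WT, 18.4 and 15.2 with LPS, 16.6 and 18.9 in untreated KO, and 13.3 and 10.3 with LPS. Both KO LPS libraries were below all 6 others. It fell in KO from percentile 93 to 73.3 (limma adjusted p = 0.0288), a call that ended without untreated KO replicate 1 or 2 or KO LPS replicate 2 (adjusted p of 0.0729 to 0.173). In WT its percentiles were 93.1 and 92.2 (limma adjusted p = 0.89), and the difference between the responses was −0.77 ± 0.34 (SE, adjusted p = 0.664).

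Region 4 of Spi1 (chr2:91070031-91070911), 11.8 kb below the gene and 0.1 kb from the zinc transporter gene Slc39a13, had 14.4 and 13.1 in untreated WT, 11.2 and 10.9 with LPS, 15.5 and 15.1 in untreated KO, and 12.7 and 12 with LPS. It did not pass with LPS in WT or KO (limma adjusted p = 0.353 and 0.336). Region 6 (chr2:91081091-91081497), 1.1 kb below the gene, had 5.53 and 5.28 in untreated WT, 4.68 and 3.25 with LPS, 5.43 and 6.44 in untreated KO, and 4.08 and 3.62 with LPS. All LPS values were below all untreated ones, and over both genotypes the percentile fell from 11.1 to 2.56 (limma adjusted p = 0.00749). Region 5 (chr2:91072002-91072392), 10.1 kb below and 1.8 kb from Slc39a13, was called in the 4 LPS libraries alone, at 5.51 and 5.48 in WT and 4.05 and 5.14 in KO. Region 17, 23.4 kb above the gene inside Madd, was gained in KO at 7.16 and 4.72 and was called in WT LPS replicate 1 at 4.62.

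Irf8, the partner of PU.1, had regions on both sides that moved in opposite directions with LPS. Region 10 (chr8:120725225-120725710), 10.9 kb upstream, had 12.2 and 12.4 in untreated WT, 14.2 and 15.2 with LPS, 10.4 and 9.78 in untreated KO, and 15.3 and 10.1 with LPS. Over both genotypes it rose from percentile 58.5 to 81 (limma adjusted p = 0.0114), a call that the log2 scale ended (adjusted p = 0.0952). Region 16 (chr8:120763240-120763651), 6.7 kb downstream of the gene, had 10.5 and 10 in untreated WT, 7.29 and 6.21 with LPS, 8.23 and 9.47 in untreated KO, and 5.66 and 4.69 with LPS. The groups did not overlap in either genotype. It fell from percentile 47.3 to 22.2 in WT (limma adjusted p = 0.0348) and from 42.7 to 12.2 in KO (adjusted p = 0.00557), and the WT call ended without any 1 of the 4 WT libraries (adjusted p of 0.0751 to 0.197).

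Region 5 of Irf8 (chr8:120704251-120704765), 31.8 kb upstream, was called in the 4 LPS libraries alone, at 6.27 and 6.88 in WT and 5.84 and 7.09 in KO. With equal numbers of peaks per list it was gained in both genotypes as well. Region 2 (chr8:120696607-120698065), 38.5 kb upstream and nearer to Cox4i1, a gene of respiratory complex IV, had 6.66 and 7.56 in untreated KO and 3.93 and 4.92 with LPS. It fell in KO by a score of −0.95 ± 0.25 (SE, limma adjusted p = 0.0221). Without untreated KO replicate 1 or 2 or KO LPS replicate 1 the difference kept its sign, at −1.02, −0.88 and −0.53, with adjusted p of 0.0619, 0.1 and 0.154. Region 15, 3.3 kb downstream of the gene, rose over both genotypes from percentile 32.2 to 50.7 (limma adjusted p = 0.019), and lost that call on the log2 scale (adjusted p = 0.144). It also lost it without WT untreated replicate 2, WT LPS replicate 1, KO untreated replicate 2 or KO LPS replicate 1 (adjusted p of 0.0501 to 0.0852). The strongest region, region 8 (chr8:120715965-120716464), 20.2 kb upstream, had values from 11.6 to 15.1 and did not pass (limma adjusted p = 0.626 in WT and 0.815 in KO).

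Irf8 also held 3 regions that only the untreated WT libraries called. Region 14 lay inside the gene, 9.1 kb from its start, at 3.29 and 3.62. Regions 17 (chr8:120786475-120786760) and 18 (chr8:120792710-120793077) lay 50.2 and 56.6 kb from the start, 29.9 and 36.2 kb beyond the gene's far end, at 5.14 and 4.85 and at 4.4 and 3.68. They count both as lost with LPS in WT and as lost in untreated KO, and those comparisons share the untreated WT libraries. All 3 were weak, at mean list percentiles of 3.07, 18.6 and 7.57, and neither call remained at Irf8 with equal numbers of peaks (0 lost in either comparison). Enhancers downstream of Irf8 are known from mouse myeloid and dendritic cells, and a match with these regions was not tested.

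**Figure D5:**
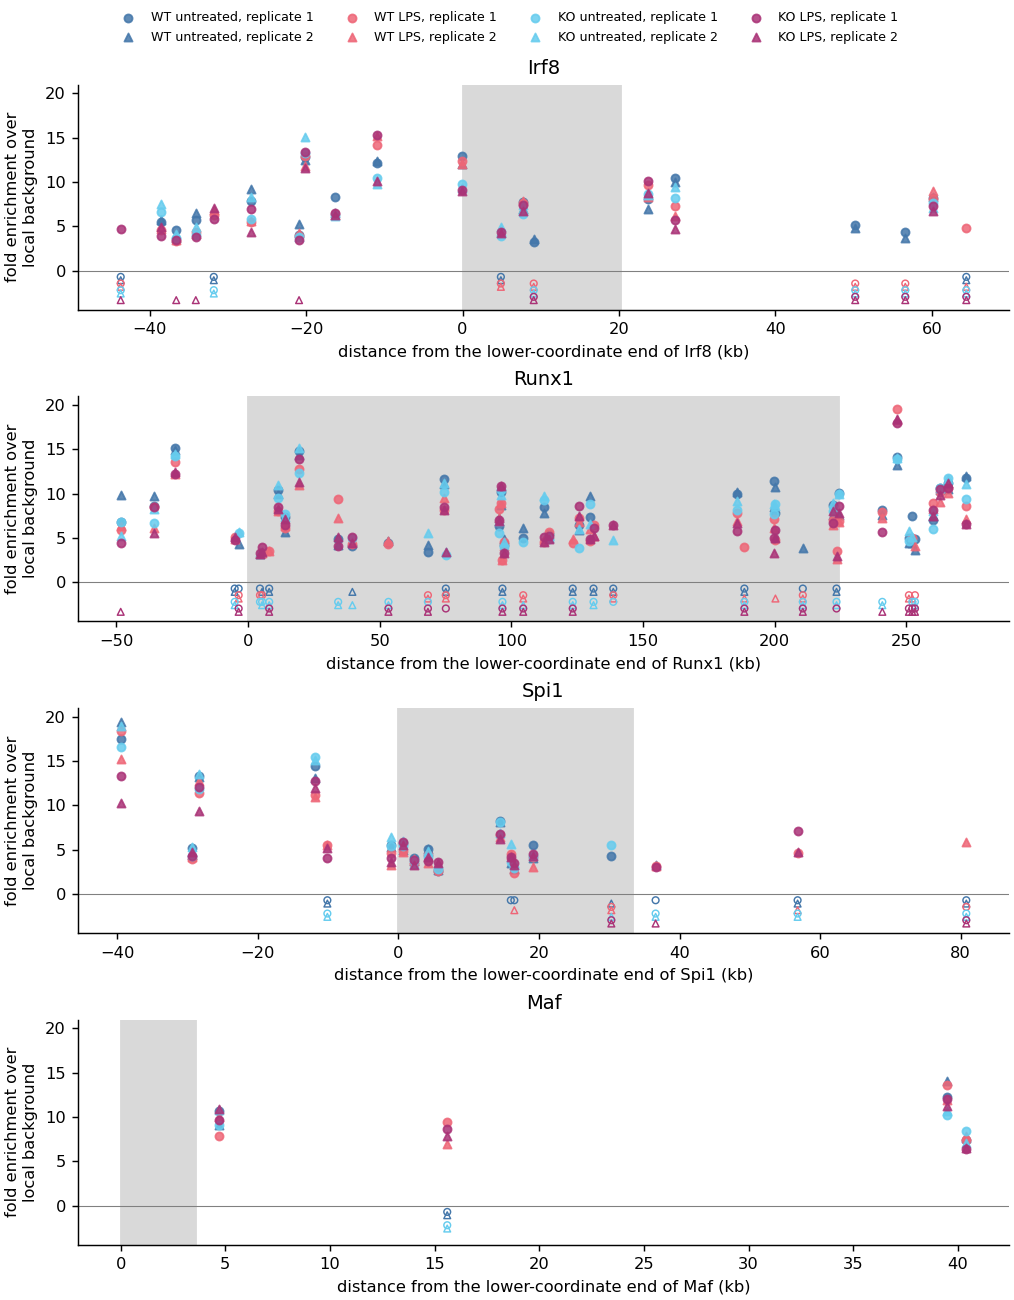
Fold enrichment over local background (y axis) of every region in every library against the distance of its summit from the lower-coordinate end of Irf8, Runx1, Spi1 and Maf (x axis, kb); the grey band is the gene, colours are groups, and open symbols under the zero line mark libraries with no call. The LPS points of the Runx1 region at 246.5 kb reach 18 to 19.5 and lie above its untreated points.

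Runx1, the core factor of blood stem cells, spans 224.6 kb and had 6 gained (13%) and 3 lost (6.52%) of its 46 regions with LPS in WT and 4 (8.7%) and 2 (4.35%) in KO, beside 10.1% and 6.02%, and 8.03% and 5.56%, of all regions. Region 39, its strongest by mean fold enrichment over all 8 lists, rose, and its LPS values enter that mean. In all 4 untreated libraries region 3, 27.9 kb below the gene, was stronger, at 15.2 and 14.9 in WT and 14.2 and 14.5 in KO. With LPS region 3 had 13.6 and 12.2 in WT and 12.2 and 12.4 in KO. Region 39 (chr16:92847742-92848294), 21.9 kb beyond the distal promoter and so upstream of it, had 14.1 and 13.2 in untreated WT, 19.5 and 18.3 with LPS, 13.9 and 14 in untreated KO, and 18 and 18.4 with LPS. All 4 LPS values were above all 4 untreated ones. It rose from percentile 72.6 to 97 in WT, a score difference of 1.28 ± 0.20 (SE, limma adjusted p = 0.00183), and from 78.8 to 96.6 in KO, 1.04 ± 0.20 (adjusted p = 0.00413). Region 23 (chr16:92713817-92714188), inside the gene between the 2 promoters, moved the other way, with 8.52 and 7.81 in untreated WT, 4.55 and 4.79 with LPS, 9.28 and 9.75 in untreated KO, and 5.1 and 4.56 with LPS. It fell from percentile 29.3 to 5.6 in WT (limma adjusted p = 0.0042) and from 48.6 to 8.88 in KO (adjusted p = 0.00105).

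Region 46 of Runx1 (chr16:92873994-92874420), 48.2 kb upstream of the distal promoter, had 11.8 and 12 in untreated WT, 8.63 and 7.14 with LPS, 9.4 and 11.1 in untreated KO, and 6.61 and 6.53 with LPS. It fell in WT (limma adjusted p = 0.0331) and in KO (adjusted p = 0.0319), and each call ended when any 1 library of its comparison was left out (adjusted p of 0.0593 to 0.209 and 0.0629 to 0.144). Over both genotypes the fall was −0.69 ± 0.14 (SE, limma adjusted p = 0.00292). Region 32 (chr16:92800802-92801316), inside the gene, had 11.4 and 8.51 in untreated WT, 7.16 and 6.16 with LPS, 7.74 and 8.86 in untreated KO, and 4.97 and 3.34 with LPS. It fell in KO from percentile 37.6 to 4.8 (limma adjusted p = 0.00539). Region 26 (chr16:92726899-92727296), also intragenic, had 6.45 and 5.93 in untreated WT, 7.25 and 6.8 with LPS, 3.86 and 6.06 in untreated KO, and 8.57 and 7.44 with LPS. It rose in KO from percentile 7.93 to 43.5 (limma adjusted p = 0.00557), and the difference from the WT response was 0.99 ± 0.41 (SE, adjusted p = 0.638). Regions 18 and 43 rose and 27 and 30 fell over both genotypes with limma adjusted p of 0.0121 to 0.0317, and each of these 4 calls ended without some single library. The log2 scale also ended those of regions 18 and 43 (adjusted p = 0.173 and 0.15), and ranks of the −log10 p that of region 30 (0.0538).

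Both Runx1 promoters were called in every library. Region 19, over the proximal promoter, had 10.2 and 8.77 in untreated WT, 8.95 and 8.98 with LPS, 10.4 and 9.89 in untreated KO, and 10.9 and 10.9 with LPS. Region 37, over the distal promoter with the 2 ACCACA motifs, had 10.1 and 7.65 in untreated WT, 6.87 and 6.81 with LPS, 10 and 9.98 in untreated KO, and 8.63 and 7.8 with LPS. Neither passed with LPS (limma adjusted p = 0.801 and 0.35 in WT, 0.232 and 0.62 in KO).

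Among the regions of Runx1 that divided the libraries, regions 4 (chr16:92596203-92596557), 5.1 kb below the gene, and 28 (chr16:92732473-92732791), inside it, were called in the 4 LPS libraries alone. Region 28 had 6.43 and 5.24 in WT and 6.18 and 5.19 in KO, and region 4 had 5.11 and 4.87 in WT and 4.8 and 5.1 in KO. Region 40 (chr16:92852295-92852694), 26.4 kb upstream of the distal promoter, was called in the 4 untreated libraries alone, at 5.04 and 4.4 in WT and 4.7 and 5.74 in KO. Regions 8, 20 and 25 were called only in the WT LPS libraries, at mean list percentiles of 4.21, 0.248 and 16.9. With equal numbers of peaks, Runx1 had 1 gained region in WT, region 28. Region 12 (chr16:92635424-92635833), inside the gene, was gained with LPS in KO at 4.05 and 5.08, at list percentiles of 7.42 and 22.8. That gain was not kept with equal numbers of peaks. In WT the region had 4.87 and 4.25 untreated and 9.4 and 7.29 with LPS.

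Maf, the gene of c-Maf, had 4 regions, all with summits above the gene. Region 2 (chr8:115718634-115719003), 11.9 kb above it, was called in the 4 LPS libraries alone, at 9.42 and 6.98 in WT and 8.61 and 7.82 in KO. At a mean list percentile of 59.6 it was the strongest of the 6 regions gained in both genotypes, and it was also gained in both with equal numbers of peaks. The other 3 were called everywhere. Region 1 (chr8:115706729-115708433), at the upper end of the gene, had 10.7 and 9.09 in untreated WT, 7.88 and 10 with LPS, 9.13 and 10.8 in untreated KO, and 9.72 and 10.9 with LPS, and region 3, 35.9 kb above, had values from 10.2 to 14.1. None of the 3 passed with LPS (limma adjusted p of 0.579 to 0.985 in WT and 0.13 to 0.666 in KO).

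Between the genotypes, regions near the 7 genes were lost in KO more often than gained as deposited. Every KO list was also shorter than every WT list, so genotype and list length cannot be told apart here. In untreated cells, 2 of the 126 regions were gained in KO (1.59%; 0.735% of all regions) and 8 were lost (6.35%; 6.22% of all regions). After LPS, 2 were gained (1.59%; 0.711%) and 7 were lost (5.56%; 6.94%). When every list was cut to its 44504 strongest peaks, 5 were gained (2.27% of the 64158 regions) and 1 lost (2.49%) in untreated cells, and 8 gained (2.26%) and 0 lost (2.67%) after LPS. The cut takes away low peaks from the longer lists of WT, so a region called in WT as deposited may become a gain of KO. Leaving out single libraries moved these counts too: the untreated gained count was 5 without WT untreated replicate 2 and 4 without KO untreated replicate 1. After LPS, the gained count was 6 with WT LPS replicate 1 left out, and 4 with WT LPS replicate 2 or KO LPS replicate 2 left out. The lost count was 11 with WT LPS replicate 2 left out and 14 with KO LPS replicate 1 left out. For these counts, shares over all regions were not computed. Cutting the lists left 4 gained (9.01%) and 8 lost (7.52%) with LPS in WT, and 9 gained (8.78%) and 10 lost (7.45%) in KO.

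The one region that all 4 KO libraries called and no WT library did was Irf8 region 12 (chr8:120741024-120741348), inside the gene 4.9 kb from its start. It had 3.89 and 4.92 in untreated KO and 4.33 and 4.27 in KO with LPS, at a mean list percentile of 10.4, and was gained in both treatments with equal numbers of peaks too (52 of all regions, 0.0678%, were gained in both as deposited). The reverse pattern was shown by Runx1 region 14 (chr16:92654529-92654950), an intragenic region with 4.43 and 4.64 in untreated WT, 4.34 and 4.71 in WT with LPS and no call in KO. Its loss was not kept with equal numbers of peaks in either treatment, and 661 of all regions (0.861%) were lost in both. Runx1 region 38 (chr16:92842175-92842571), 16.3 kb upstream of the distal promoter, had 8.11 and 7.65 in untreated WT, 7.96 and 7.29 in WT with LPS, no call in untreated KO, and 5.66 in KO LPS replicate 1. It was the 1 loss in untreated KO that equal numbers of peaks kept. Runx1 region 29, inside the gene, was gained in KO after LPS at 6.52 and 6.5, with 4.74 in untreated KO replicate 2, and region 17 was gained in untreated KO at 3.04 and 3.42.

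Among the 65 regions open in every library, the rank test called no difference between the genotypes. It called 0 in untreated cells (0.404% of all regions higher and 0.426% lower), 0 after LPS (0.0904% and 0.132%) and 0 over both treatments (2.32% and 2.5%). At an unadjusted p under 0.05, limma had 8, 13 and 21 of the 65 (12.3%, 20% and 32.3%), against 16.2%, 16.2% and 24.4% of all regions. Over both treatments, 1 region ranked higher without WT LPS replicate 2 (0.785% of all regions) and 1 lower without KO LPS replicate 1 (1.76%). Over both treatments, log2 values called 0 higher and 2 lower (0.83% and 7.99% of all regions). Ranks of the −log10 p called 1 higher and 0 lower (2.28% and 1.02% of all regions). The median score difference of the 65 was 0.06 over both treatments, against 0.01 for all regions.

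The 4 smallest of these adjusted p-values belonged to regions at promoters or gene ends, and none passed. The distal Runx1 promoter (region 37) had mean percentiles of 49.4 in KO and 29.2 in WT, a difference of 0.55 ± 0.15 (SE, limma adjusted p = 0.0619). Spi1 region 7, at the gene's lower end, had 15.2 and 6.85 (adjusted p = 0.071), and the proximal Runx1 promoter had 60.9 and 42.6 (adjusted p = 0.0765). The Irf8 promoter (region 11, chr8:120735829-120736829) had 12.9 and 12 in untreated WT, 12.4 and 12 in WT with LPS, 9.75 and 9.29 in untreated KO, and 9.05 and 8.95 in KO with LPS. Every KO value was below every WT value, with mean percentiles of 51 and 67.8 (limma adjusted p = 0.0799). The Cebpa promoter had 74.4 in KO and 63 in WT (limma adjusted p = 0.163).

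Related genes were set beside the 7, using lists of relatives and other macrophage regulators. Over all regions, 10.1% were gained and 6.02% lost with LPS in WT, and 8.03% and 5.56% in KO. The other C/EBP genes, Cebpe, Cebpg and Ddit3, had 35 regions, with 0 gained and 4 lost (11.4%) with LPS in WT, and 1 gained (2.86%) and 8 lost (22.9%) in KO. Cebpg accounted for the 4 and for 6 of the 8, and 3 of its 12 regions are also Cebpa regions. The 7 Ets factors related to PU.1 had 15 gained (11.5%) and 12 lost (9.16%) of 131 in WT, and 16 (12.2%) and 4 (3.05%) in KO. Etv6, a repressor of the Ets family, had 10 gained and 3 lost in WT and 7 and 2 in KO.

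Runx2, Runx3 and Cbfb, the last encoding the shared partner of RUNX proteins, had 7 gained (10.1%) and 4 lost (5.8%) of 69 regions in WT and 6 (8.7%) and 4 (5.8%) in KO, with Runx2 holding 6 and 3 in each genotype. The 13 further regulators of monocytes and macrophages had 32 gained (14.7%) and 11 lost (5.05%) of 218 in WT and 25 (11.5%) and 11 (5.05%) in KO. Mitf, a factor of melanocytes and osteoclasts, had 10 gained and 1 lost in WT and 8 and 1 in KO, and Zeb2, a repressor that keeps macrophage identity, had 7 and 0 in WT and 3 and 0 in KO. Macrophage markers had 12 gained (9.16%) and 7 lost (5.34%) of 131 in WT and 3 (2.29%) and 9 (6.87%) in KO. Factors of other lineages had 2 gained (1.71%) and 6 lost (5.13%) of 117 in WT and 6 (5.13%) and 5 (4.27%) in KO.

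In the comparison of KO with WT, 6.22% of all regions were lost in untreated cells and 6.94% after LPS, and the lists varied around these shares. The Runx relatives lost 9 (13%) and 8 (11.6%) of 69, the macrophage markers 8 (6.11%) and 15 (11.5%) of 131, and the factors of other lineages 10 (8.55%) and 5 (4.27%) of 117. The further macrophage regulators lost 14 (6.42%) and 17 (7.8%) of 218, the Ets factors 7 (5.34%) and 8 (6.11%) of 131, and the C/EBP relatives 1 (2.86%) and 0 of 35. Of shared regions, the rank test of LPS over both genotypes, which called 15% of all regions higher and 15.8% lower, called 22 higher and 22 lower of 88 at the further macrophage regulators, 6 and 15 of 54 at the Ets factors, 11 and 11 of 67 at the macrophage markers, 5 and 6 of 43 at the factors of other lineages, 4 and 4 of 28 at the Runx relatives, and 0 and 2 of 14 at the C/EBP relatives.

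As a description, the number of called regions per library was compared between each of the 7 genes and the 51 listed genes over the 8 libraries, which also differ in list length. Cebpa was most like Cebpg (Pearson r = 0.966, with shared regions) and Fli1, an Ets factor of megakaryocytes and endothelium (0.949). Runx1 was most like Ikzf1, the gene of Ikaros (0.932), Cebpb like the repressor gene Bcl6 (0.931), and Maf like Mitf (0.887). Irf8 was most like Mafg (0.873), Spi1 like Gfi1 (0.761) and Cebpd like Cebpg (0.757). These counts span few regions, and 8 libraries in 4 groups set how many patterns are possible.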

How the data were processed

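Chromatin accessibility was measured by ATAC-seq in 8 libraries, 2 in each of 4 groups, and the authors deposited 1 peak list for each library. Alignment and peak tools are listed in the submitters' processing notes as BWA 0.7.12 and MACS2, with the mm10 build. The filter on the peaks and the read totals are not given in the sources used here, so a region without a call may have been weak or filtered. The deposited fold enrichment of a peak over local background is a ratio made within its own library. The deposited lists also hold a −log10 p and a −log10 q of each peak, that is its p-value and q-value, and the distance of its summit from its start. The deposited score equals 10 times the −log10 p within 1, as checked on the values.

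Peaks overlapping by at least 1 bp were merged over the 8 lists, and the highest peak in a region gave a library's value. Gene spans came from RefSeq (GRCm38.p6), with 21883 protein-coding genes. Gained and lost calls were counted. Regions called in all 8 libraries were ranked and tested with limma 3.58.1 (R 4.3.3) on normal scores with 4 group means and no block, a procedure checked on simulated data. A percentile is the mean over the 2 libraries of a group (4 where groups were joined). The 7 genes, the 7 lists (51 genes, all 51 matched) and the tests were chosen with earlier results of these data known. One of these lists is not reported here. Regions named are the strongest of each gene, those at gene ends, those gained or lost or past the test (beyond 4, the 4 strongest or those of smallest p) and the largest rank differences with LPS; a few others were chosen after their values were seen. Alternatives were equal numbers of peaks (44504), a −log10 p of at least 20, a stricter overlap, a replicate block, log2 values, ranks of the −log10 p, and each library left out. Replicate numbers name libraries and were not taken as pairs.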

Additional observations from a re-analysis of the deposited data

How the results depend on the processing

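Depth is unknown, so a missing call is not shown to be closed DNA. Several of the counts moved when weak peaks were left out, and others moved little. With equal numbers of peaks, LPS in KO had 9 gained and 10 lost, against 9 and 8 as deposited. LPS in WT had 8 lost, against 10. Equal numbers of peaks changed the gained counts to 4 (LPS in WT), 5 (KO untreated) and 8 (KO after LPS), beside 9.01%, 2.27% and 2.26% of all regions. The lost counts became 1 (KO untreated) and 0 (KO after LPS), beside 2.49% and 2.67%. A −log10 p of at least 20 gave 4 gained with LPS in WT, 5 gained with LPS in KO and 1 lost in untreated KO. With log2 values, 5 regions were lower with LPS in WT (11.7% of all regions). Over both genotypes 4 were higher and 19 lower with LPS (8.46% and 27.7%), and 2 were lower in KO over both treatments (7.99%). Ranks of the −log10 p gave 6 higher with LPS in WT (11.2%) and 1 higher in KO over both treatments (2.28%). Equal numbers of peaks also gave 1 higher in KO over both treatments (2.85%). Why these counts differ was not tested, beyond the removal of weak peaks by construction in the first 2 settings.

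Without each library in turn, gained and lost counts were 13 to 16 and 11 to 15 for LPS in WT, 10 to 14 and 9 to 14 for LPS in KO, 2 to 5 and 9 to 11 for untreated KO, and 3 to 6 and 9 to 14 for KO after LPS, where fewer libraries had to agree. Shares over all regions were not computed for these calls, so whether the 7 genes differ from other regions in this cannot be told. Counts ranked higher and lower were 3 to 3 and 1 to 2 for LPS in WT, 4 to 6 and 4 to 6 in KO, 7 to 9 and 7 to 10 over both genotypes, and 0 to 1 and 0 to 1 for KO over both treatments. They were 0 for the other contrasts. Of all regions, 3.86% to 4.07% were higher and 2.37% to 3.46% lower for LPS in WT in these settings. In KO the shares were 5.83% to 6.95% and 5.1% to 6.55%. Of 40 called rank differences of single regions, 24 kept their call whichever library was left out, 16 lost it at least in 1 case and 0 reversed. The log2 scale kept 33, ranks of the −log10 p 36, and equal numbers all 34 that could be compared. The 40 are not separate regions, since a region called in WT, in KO and over both genotypes counts once for each. For each call, only libraries of the groups compared were left out. Libraries of different groups that share a replicate number did not deviate together (r of −0.0769 to 0.0317), so the numbers give no pairing. With a replicate block, 5 regions ranked higher and 9 lower with LPS in KO, 3 and 3 in WT, 9 and 10 over both genotypes and 0 in the genotype and interaction contrasts, and 39 of the 40 single calls were kept. The 1 that ended was the rise of Cebpb region 16 with LPS in KO (limma adjusted p = 0.0624). Of all regions, the block called 9.3% higher and 8.56% lower in KO, 7.43% and 6.77% in WT, and 14.6% and 15.2% over both genotypes.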
